A study of Mus musculus with 9 samples.

Results

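The microRNA miR-30a is described here through both of its mature products, mmu-miR-30a-5p and mmu-miR-30a-3p, in extracellular vesicles released by cultured mouse podocytes. The 2 products were chosen by their abundance in these same libraries, out of 1915 mouse miRNA identifiers in the tables, so their high level is a description and was not tested. The vesicles came from a conditionally immortalized podocyte cell line, which multiplies at a permissive temperature and matures after a shift to body temperature. All cells had differentiated for 10 days and were then kept for 48 h in 1 of 3 media. Normal glucose medium held 5.3 mM glucose, high glucose medium held 30 mM glucose, and the mannitol medium held 5.3 mM glucose with 24.7 mM mannitol as the osmolality control. Each medium had 3 libraries of small RNA. Every group was the same cell line in medium with fetal bovine serum, and the vesicles were collected from the supernatant with a precipitation reagent, per the labels' protocols. Whether the 3 libraries of a medium stem from 3 cultures is not stated in the labels, so a p-value here reflects library-to-library spread that could be technical.

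A microRNA gene is transcribed into a hairpin, and the hairpin is cut to a duplex of 2 short strands, one from its 5′ side (5p) and one from its 3′ side (3p). Usually one strand, the guide, is kept in an Argonaute protein, where bases 2 to 8, the seed, select messenger RNAs to be repressed, and the other strand is mostly lost. The miR-30 family shares the guide seed and is known as a highly expressed family of podocytes, where losing its guides harms the cells. It is also abundant in kidney tubule and other epithelia. Vesicles carry miRNAs out of the cell, and the amount found in them depends on how many vesicles are released as well as on what each one holds, which these data cannot tell apart.

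The mature sequences below show which parts miR-30a shares with its relatives. Each is written 5′ to 3′ from RefSeq on GRCm38.p6, with the seed, bases 2 to 8, in capitals.
miR-30a-5p: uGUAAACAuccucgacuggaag
miR-30e-5p: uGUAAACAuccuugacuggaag
miR-30c-5p: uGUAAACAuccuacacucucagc
miR-384-5p: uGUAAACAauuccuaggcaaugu
miR-30a-3p: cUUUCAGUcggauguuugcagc
miR-30e-3p: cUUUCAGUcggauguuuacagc
miR-30c-2-3p: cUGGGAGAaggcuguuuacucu
The 4 guides printed share 1 seed. The 3p strands fall into 2 seeds, 1 held by miR-30a-3p and miR-30e-3p and the other by miR-30c-2-3p, so the 2 arms of miR-30a are read through different seeds. Counted from 1 at the 5′ end, miR-30e-5p differs from miR-30a-5p by the single substitution C13U, and miR-30e-3p differs from miR-30a-3p by the single substitution G18A. Reads with an error at that base could be counted under the other name, and values of these near-identical relatives carry that uncertainty. Of the 6 family guides 4 had a RefSeq sequence in the table used, and so had 4 of the 6 other arms. Those without were miR-30b and miR-30d.

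The hairpin shows how the 2 products face each other. The mature arms are in capitals, and the remaining letters are the loop and the ends.
Mir30a: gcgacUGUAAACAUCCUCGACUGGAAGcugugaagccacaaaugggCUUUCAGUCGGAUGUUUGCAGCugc
In a minimum free energy fold by RNAfold, 20 of the 22 bases of the 5p arm paired with the 3p arm, 19 bases lay between the arms, and the fold energy was -37.2 kcal/mol. The gene Mir30a lies at chr1:23272269-23272339 on the plus strand of GRCm38, with the 5p arm at chr1:23272274-23272295 and the 3p arm at chr1:23272315-23272336. In the GENCODE vM21 annotation the hairpin is the only exon of its own gene and overlaps no other annotated gene. The next family hairpin, Mir30c-2, lies 19361 bases downstream on the same strand, inside an exon of the long noncoding RNA gene Gm27028.

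The 9 libraries held 725211 to 2553690 miRNA counts each, and 296 to 419 miRNAs were listed per library. No count from 1 to 9 occurred, which means that a value of 0 could hide up to 9 reads, and 10 counts amounted to 3.92 to 13.8 CPM. Levels below are CPM, counts scaled so that the miRNA counts of every library have the same total. Each is therefore a share of the library, and a rise of 1 abundant miRNA lowers the shares of the rest.

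miR-30a-5p was the most abundant miRNA by its mean over the 9 libraries, 116618 CPM, and came first in 6 of them. It was read 134842, 101588 and 118214 times in the 3 normal glucose libraries, which gave 87587, 93445 and 106766 CPM. With mannitol its counts were 115139, 217807 and 181193, or 86608, 137096 and 79829 CPM. In high glucose it was counted 78282, 229409 and 435653 times, or 107944, 179693 and 170597 CPM. Its mean share of all miRNA counts was 9.59% for normal glucose, 10.1% for mannitol and 15.3% for high glucose. The 3 high glucose libraries were above all 3 normal glucose libraries in CPM, the nearest pair being 107944 and 106766, while mannitol replicate 2 lay among the high glucose values. Mean levels (± SD, n = 3) were 95933 ± 9828 CPM for normal glucose, 101177 ± 31290 CPM for mannitol and 152745 ± 39064 CPM for high glucose.

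The order of the libraries depended on the scale. The authors' own normalized values, in RPM, divide each count by 1 constant per library that is far larger than the sum of its miRNA counts. In these units miR-30a-5p had 6095, 4251 and 5235 in the normal glucose libraries, 5121, 9239 and 7749 in the mannitol libraries, and 3700, 10029 and 13662 in the high glucose libraries. High glucose replicate 1 was then the lowest of all 9 libraries, where by CPM it was the fourth highest. No label or header used here states what the constant stands for. High glucose replicate 1 had the fewest miRNA counts, 725211. With the TMM scaling of the edgeR test below, high and normal glucose overlapped. High glucose replicate 1 was then at 101262 CPM and normal glucose replicate 2 at 105542 CPM.

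miR-10a-5p, miR-10b-5p and miR-21a-5p came next by mean CPM, at 88696, 83268 and 56447. The first pair come from Hox gene clusters, and miR-21a-5p is a widely expressed miRNA that is raised in many injured tissues. A ratio of counts within a library needs no scaling. miR-30a-5p counts per miR-10a-5p count were 0.900, 0.874 and 1.102 under normal glucose, 1.018, 1.996 and 0.736 under mannitol, then 1.18, 2.77 and 2.17 under high glucose. Per miR-10b-5p count they were 1.01, 0.957 and 1.07, then 1.31, 2.08 and 0.852, then 1.29, 2.50 and 2.02. Per miR-21a-5p count they were 1.59, 1.88 and 1.87, then 2.16, 1.79 and 2.34, then 2.31, 2.47 and 2.25. In each of the 3 ratios the high glucose libraries lay above the normal glucose libraries and overlapped with the mannitol libraries. By CPM the first 2 denominators were themselves lower in high than in normal glucose. miR-10a-5p was at 64831 to 91608 CPM in high glucose and 96849 to 106864 CPM in normal glucose. miR-10b-5p was at 71787 to 84334 CPM and 86888 to 99610 CPM, while the 2 groups of miR-21a-5p overlapped. With TMM scaling miR-10b-5p overlapped too, at 78518 to 91265 CPM in high glucose and 83790 to 110248 CPM in normal glucose. The edgeR log2 fold changes of high over normal glucose were -0.29 for miR-10a-5p and -0.16 for miR-10b-5p. Both had an edgeR adjusted p of 0.995. How many other miRNAs lay wholly lower in high glucose was not counted. The 3 ratios of miR-30a-5p also share their numerator and were not tested. How often other ratios set the 2 groups apart in this way was not counted. In CPM, high glucose lay wholly above normal glucose for 9 of the 361 tested miRNAs, or 2.49%.

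miR-30a-3p, the strand usually discarded, was itself among the abundant miRNAs of the vesicles. It was counted 20723, 8993 and 11711 times under normal glucose, 15866, 14654 and 28700 times under mannitol, then 10741, 10769 and 27131 times under high glucose. Its levels were 13461, 8272 and 10577 CPM, then 11934, 9224 and 12644 CPM, then 14811, 8435 and 10624 CPM. The groups overlapped throughout, with means of 10770 ± 2600 CPM, 11268 ± 1805 CPM and 11290 ± 3240 CPM in the same order of media (SD, n = 3 each). It ranked 17th to 28th in single libraries and 23rd by its mean of 11109 CPM. Among the 749 hairpins with both arms in the table it was the most abundant weaker arm, ahead of the weaker arm of miR-99b at 3941 CPM.

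**Figure D1:**
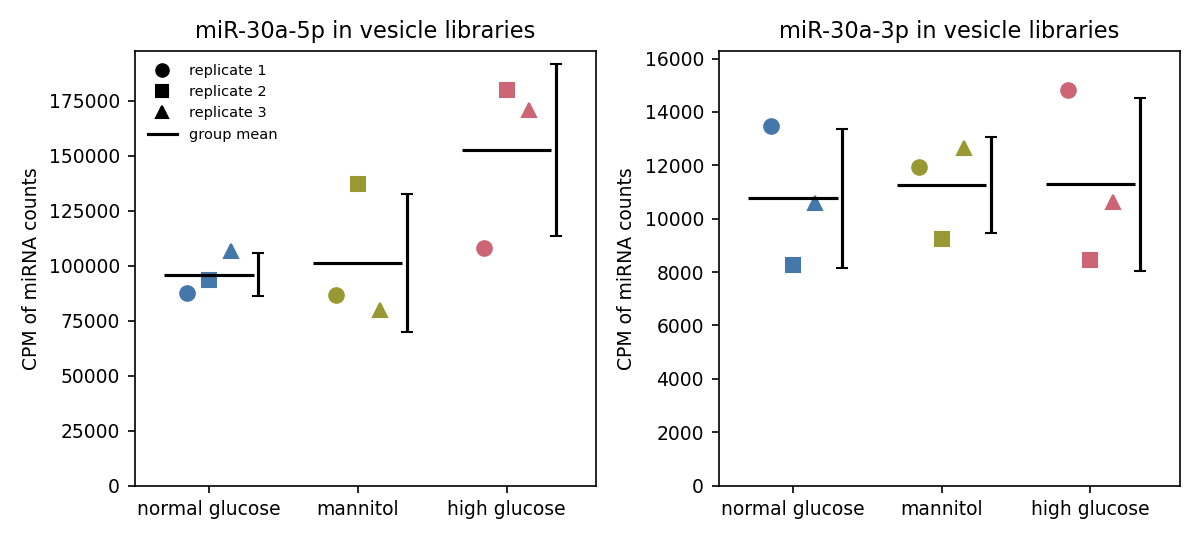
Levels of the 2 arms of miR-30a in each of the 9 libraries, in CPM of miRNA counts on axes that start at 0. Points are libraries, horizontal lines are group means and bars are 1 SD (n = 3). miR-30a-5p reaches 179693 CPM in high glucose and overlaps between high glucose and mannitol, while the 3 groups of miR-30a-3p overlap between 8272 and 14811 CPM.

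The first comparison asked whether the vesicle level of each arm differed between media. For miR-30a-5p the log2 fold change of high glucose over normal glucose was 0.79 (SE 0.32, 95% interval 0.12 to 1.47), and that of high glucose over mannitol was 0.75 (SE 0.32, 95% interval 0.07 to 1.42). Neither passed the threshold of 0.05 by edgeR's quasi-likelihood test after Benjamini-Hochberg adjustment over 361 tested miRNAs, with adjusted p = 0.995 and 0.704. Against both control groups together the log2 fold change was 0.77 (SE 0.27, 95% interval 0.20 to 1.34, edgeR adjusted p = 0.772). The unadjusted p-values of these 3 differences were 0.0245, 0.0322 and 0.0111 by edgeR, with intervals that leave out 0 before adjustment. Mannitol over normal glucose gave 0.04 (95% interval -0.63 to 0.72, edgeR adjusted p = 1), an interval that holds changes of either sign. The 3 comparisons with high glucose share its libraries and are not separate evidence.

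Deviations from the group means were correlated between each high glucose library and each control library. The correlations were 0.169 to 0.521 for libraries of the same number and -0.451 to 0.112 for libraries of different numbers. The 3 deviations of a group sum to 0, so positive values for the same number partly force negative ones for different numbers. Between mannitol and normal glucose, libraries of the same number were at -0.058 to 0.229, and those of different numbers reached 0.199. The labels give no pairing. With the number as a block, the log2 fold change of miR-30a-5p was 0.73 over normal glucose, 0.75 over mannitol and 0.74 over both controls, with edgeR adjusted p-values of 0.743, 0.293 and 0.225. No miRNA was called by edgeR in these 3 blocked fits (0% of 361), and 19, or 5.26%, 52, or 14.4%, and 39, or 10.8%, had an unadjusted p under 0.05.

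For miR-30a-3p the log2 fold change was 0.15 for high over normal glucose (SE 0.26, 95% interval -0.40 to 0.69), 0.14 for high glucose over mannitol (95% interval -0.41 to 0.68) and 0.01 for mannitol over normal glucose (95% interval -0.54 to 0.56). Against both controls it was 0.14 (SE 0.22, 95% interval -0.33 to 0.61). The edgeR adjusted p-values were 0.995, 0.948, 1 and 0.917 in that order.

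Few miRNAs of any kind were called between media, with only 3 libraries a group to tell a difference from spread. Over all 361 tested miRNAs edgeR called 0% in each of the 4 comparisons after adjustment. At an unadjusted p under 0.05 it had 10 miRNAs, or 2.77%, for high against normal glucose, 19, or 5.26%, for high glucose against mannitol, 5, or 1.39%, for mannitol against normal glucose, and 21, or 5.82%, for high glucose against both controls. DESeq2 called 0, 1, 0 and 0 miRNAs in the same order and limma-voom none, and the DESeq2 call was not an arm of miR-30a. All 3 high glucose libraries lay above all 3 normal glucose libraries in CPM for 9 of the 361 miRNAs, or 2.49%, and miR-30a-5p was 1 of these. With TMM scaling these 2 groups overlapped for miR-30a-5p.

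Leaving out mannitol replicate 2, the mannitol library with the highest miR-30a-5p level, brought the log2 fold change of high glucose over both controls to 1.03 with an edgeR adjusted p of 0.0407, the only setting tried that passed. In that fit edgeR called 5 of 372 miRNAs, or 1.34%, and 79, or 21.2%, had an unadjusted p under 0.05, so leaving out this library raised the number of such miRNAs across the whole table and not for miR-30a-5p alone. Without it, high glucose over mannitol was 1.16 with an edgeR adjusted p of 0.0531, beside 1 called miRNA, or 0.269%, and 96, or 25.8%, with an unadjusted p under 0.05. Over the alternatives tried, the adjusted p of these 2 comparisons ran from 0.0407 to 1 and from 0.0531 to 1, and that of high over normal glucose from 0.613 to 1. With the library constant behind the authors' normalized values as the scale, the log2 fold change of miR-30a-5p was 0.81 over normal glucose and 0.31 over mannitol, where all tested miRNAs had medians of -0.12 and -0.59. Relative to that median the differences were 0.93 and 0.90. On that scale miR-30a-3p differed from mannitol by -0.48, or by 0.11 relative to the median.

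The guides of the family other than miR-30a-5p give the level against which it stands out. miR-30d-5p was second, at 36849, 41183 and 31603 CPM under normal glucose, 39561, 37703 and 25759 CPM under mannitol, then 40079, 42500 and 33972 CPM under high glucose. Its 3 groups overlapped. miR-30e-5p, which differs from miR-30a-5p by 1 base, was at 643, 977 and 1051 CPM, then 552, 1525 and 482, then 680, 1981 and 1364. miR-30c-5p had a mean of 838 CPM and miR-30b-5p one of 80.4 CPM. miR-384-5p, which shares the seed, was listed at 0 in all 9 libraries. Between neighbours in this order, the ranges of miR-30a-5p and miR-30d-5p did not overlap, while those of miR-30e-5p and miR-30c-5p did.

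miR-30a-5p thus made up most of the family's guide counts. It held 69.3%, 68.5% and 76.1% of them in the normal glucose libraries, 67.8%, 77.4% and 74.8% in the mannitol libraries, then 72.0%, 79.9% and 82.5% in the high glucose libraries. The means were 71.3% ± 4.21, 73.3% ± 4.98 and 78.1% ± 5.47 (SD, n = 3 each), and the groups overlapped. The exact permutation p over libraries was 0.2 for high against normal glucose, 0.4 for high glucose against mannitol, 0.8 for mannitol against normal glucose and 0.131 for high glucose against both controls, all two-sided. Adjusted over the 12 permutation tests made in all, these exact p-values were 0.6, 0.6, 0.873 and 0.6. Within each of the 3 library numbers the share was higher in high glucose than in either control, with an exact sign-flip permutation p of 0.25. With 3 libraries against 3 the smallest p an exact permutation can give is 0.1, and with 3 against 6 it is 0.0119. The other guides summed to 38415 ± 4777, 36007 ± 7922 and 41155 ± 4620 CPM in the same order of media (SD, n = 3 each). Their exact permutation p-values were 0.6, 0.4, 0.7 and 0.357, or 0.8, 0.6, 0.84 and 0.6 after adjustment. Their sum, too, was higher in high glucose than in either control within each of the 3 numbers.

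Of the 6 family guides 5 passed the filter on low counts, miR-30a-5p included. All 5 had a positive log2 fold change in high over normal glucose, with a median of 0.17 beside -0.04 for all tested miRNAs, and all 5 in high glucose over mannitol, with 0.41 beside -0.04. The edgeR test passed none of them. The closest to miR-30a-5p was miR-30e-5p, at 0.73 (SE 0.50) over normal glucose and 0.80 over mannitol. miR-30d-5p was at 0.17 and 0.34, miR-30c-5p at 0.04 and 0.41, and miR-30b-5p at 0.14 and 0.22 in the same 2 comparisons, which share the high glucose libraries. In mannitol over normal glucose 1 of 5 guides was positive, with a median of -0.08 beside 0.01.

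The other arms of the family were far below miR-30a-3p. miR-30e-3p lay between 536 and 740 CPM. miR-30c-2-3p, from the hairpin next to miR-30a on the chromosome, was at 101, 87.4 and 114 CPM under normal glucose, 131, 154 and 111 CPM under mannitol and 142, 140 and 112 CPM under high glucose, and these groups overlapped. miR-30b-3p and miR-30d-3p were listed at 0 in some libraries and reached at most 15.7 and 13.8 CPM, and miR-30c-1-3p was listed at 0 in all 9. Of the 6 other arms 5 passed the filter, and 4 of these had a positive log2 fold change in high over normal glucose. The median of the 5 was 0.22 beside -0.04 for all tested miRNAs. Among the 4 was miR-30d-3p, at 0.36 (SE 2.02), and the negative arm was miR-30b-3p, at -1.53 (SE 1.93). Both had listed zeros, so their signs carry little. The edgeR test called none of the 5 arms. The filter keeps an arm that is high enough in 1 group, so these counts describe the arms that passed and not the whole list.

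**Figure D2:**
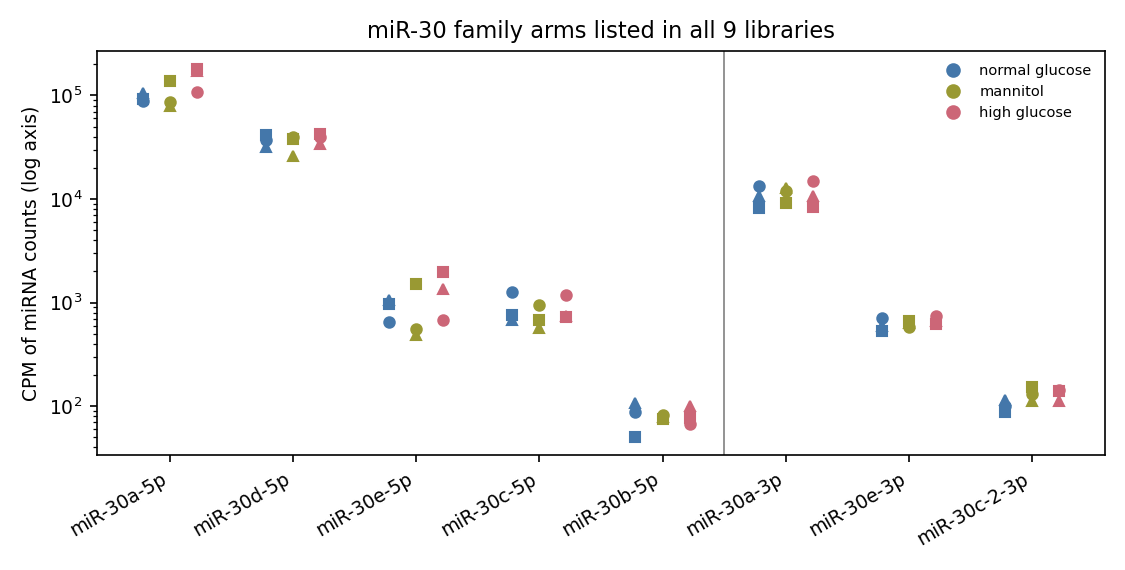
Levels of the 8 miR-30 arms listed in all 9 libraries, in CPM on a log axis, with family guides left of the grey line and other arms right of it. Points are libraries, coloured by medium, with circles, squares and triangles for replicates 1, 2 and 3. miR-30a-5p stands above miR-30d-5p in every library, and miR-30a-3p stands above miR-30e-3p in every library.

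The ratio of the 2 arms compares strands cut from the same hairpin and needs no scaling between libraries. The 5p arm had 6.51, 11.3 and 10.1 counts per 3p count under normal glucose, 7.26, 14.9 and 6.31 under mannitol, then 7.29, 21.3 and 16.1 under high glucose. The ratio thus varied more than 3-fold between libraries, and it varied within each medium, from 7.29 to 21.3 in high glucose alone. Put as a share, the 3p arm made up 13.3%, 8.13% and 9.01% of miR-30a counts under normal glucose, 12.1%, 6.30% and 13.7% under mannitol, then 12.1%, 4.48% and 5.86% under high glucose. The 95% Wilson intervals of these shares were 0.135 to 0.428 percentage points wide and cover counting error only.

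The mean ratio (± SD, n = 3) was 9.30 ± 2.49 for normal glucose, 9.48 ± 4.69 for mannitol and 14.9 ± 7.08 for high glucose. On the log2 scale the difference was 0.58 for high over normal glucose (SE 0.52, 95% interval -0.51 to 1.67) and 0.62 for high glucose over mannitol (95% interval -0.46 to 1.71). It was -0.04 for mannitol over normal glucose (95% interval -1.13 to 1.05) and 0.60 for high glucose over both controls (SE 0.45, 95% interval -0.34 to 1.55). In limma, fitted over the 41 hairpins with both arms listed in all libraries, the adjusted p-values were 0.799, 0.618, 0.971 and 0.763. The exact two-sided permutation p-values were 0.3, 0.2, 0.9 and 0.179, or 0.6, 0.6, 0.9 and 0.6 adjusted over the 12 tests. High glucose libraries were above normal glucose libraries in 7 of 9 pairs of libraries and above mannitol libraries in 8 of 9. Within each of the 3 library numbers the ratio was higher in high glucose than in either control. The exact sign-flip permutation p of these 3 differences was 0.25, the smallest that 3 pairs can give. With the number as a block the limma adjusted p was 0.612 over normal glucose, 0.353 over mannitol and 0.406 over both controls. The groups overlapped, and all 4 intervals include 0. These differences moved by over 1.5 times with single libraries. Without high glucose replicate 2 they were 0.26 over normal glucose, 0.30 over mannitol and 0.28 over both controls, and without high glucose replicate 1 they were 1.03, 1.07 and 1.05. Without mannitol replicate 2 the difference over mannitol was 1.002.

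Over the 41 hairpins limma called 0% in each comparison after adjustment. At an unadjusted p under 0.05 it had 0% for high against normal glucose and for high glucose against both controls, and 4 hairpins, or 9.76%, in each of the other 2 comparisons, and miR-30a was not among these.

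**Figure D3:**
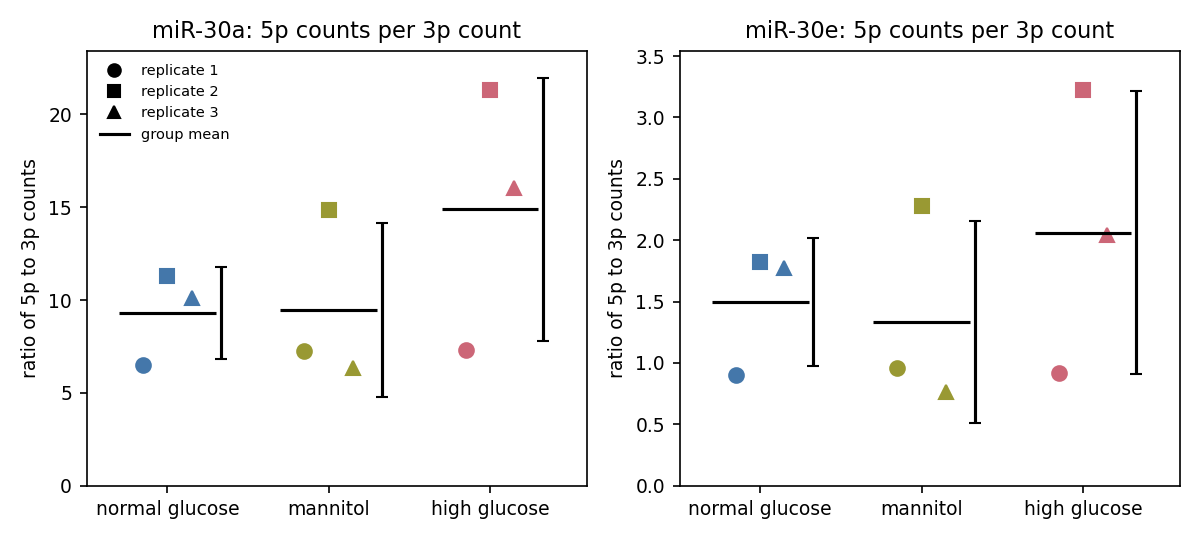
Counts of the 5p arm per count of the 3p arm in each of the 9 libraries for miR-30a and miR-30e, on axes that start at 0. Points are libraries, horizontal lines are group means and bars are 1 SD (n = 3). The libraries of each medium spread widely, from 7.29 to 21.3 for miR-30a in high glucose, and the 2 hairpins have a like order of libraries.

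The arm ratio of miR-30e, whose mature arms each differ from those of miR-30a by 1 base, varied from library to library along with that of miR-30a, at a lower level. Its 5p arm had 0.898, 1.82 and 1.78 counts per 3p count under normal glucose, 0.956, 2.28 and 0.766 under mannitol, then 0.918, 3.22 and 2.04 under high glucose. The mean over all 9 libraries was 1.63, and in 4 of the 9 libraries the 3p strand had more counts. The log2 ratios of miR-30a and miR-30e had a Pearson r of 0.974 over the 9 libraries, the highest of the 40 other hairpins, whose median r was 0.149. Next were miR-191 at 0.953 and miR-106b at 0.926, which share no seed with the miR-30 family, and miR-27a was lowest at -0.838. The weaker arms of miR-191, miR-106b and miR-27a had means of 25.9, 102 and 37.6 CPM, beside 11109 CPM for miR-30a. The r values are descriptions over 9 libraries that share each library's preparation, and they carry no test. miR-30a-5p had 89.9 to 166 counts per miR-30e-5p count. The part of reads counted under the other name in the r of miR-30e was not tested. In the fold of its own hairpin miR-30e had 20 paired bases of its 5p arm, as miR-30a had, with a fold energy of -51.8 kcal/mol for a longer hairpin.

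Across hairpins miR-30a leaned to its 5p arm. Its mean log2 ratio of 3.36 took place 8 of 41, and 18 of the 41 hairpins had more 5p than 3p counts. The hairpins nearest above were miR-185 at 6.03, miR-93 at 6.18 and let-7b at 7.58, and those nearest below were let-7e at 3.31, miR-34c at 2.30 and miR-423 at 2.30. Of the hairpins that give the 10 most abundant miRNAs, 4 others were among the 41, with 7.74 for miR-10a, 8.14 for miR-10b, -9.70 for miR-27b and -10.36 for miR-151, the last pair toward 3p. By distance from 0 in either direction miR-30a took place 20 of 41. The SD of the log2 ratio of miR-30a over the 9 libraries was 0.637, place 12 of 41 from the most variable, where the median was 0.522. Among the 19 hairpins whose weaker arm had a mean of at least 100 counts it was place 4, with a median of 0.488. The weaker arm of miR-30a had at least 8993 counts in every library. Those of its neighbours in ratio were lower than its mean of 11109 CPM. They had means of 43.2 CPM for miR-185, 33.3 for miR-93 and 69.5 for let-7b. Below miR-30a they were 34.1 CPM for let-7e, 383 for miR-34c and 1797 for miR-423.

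**Figure D4:**
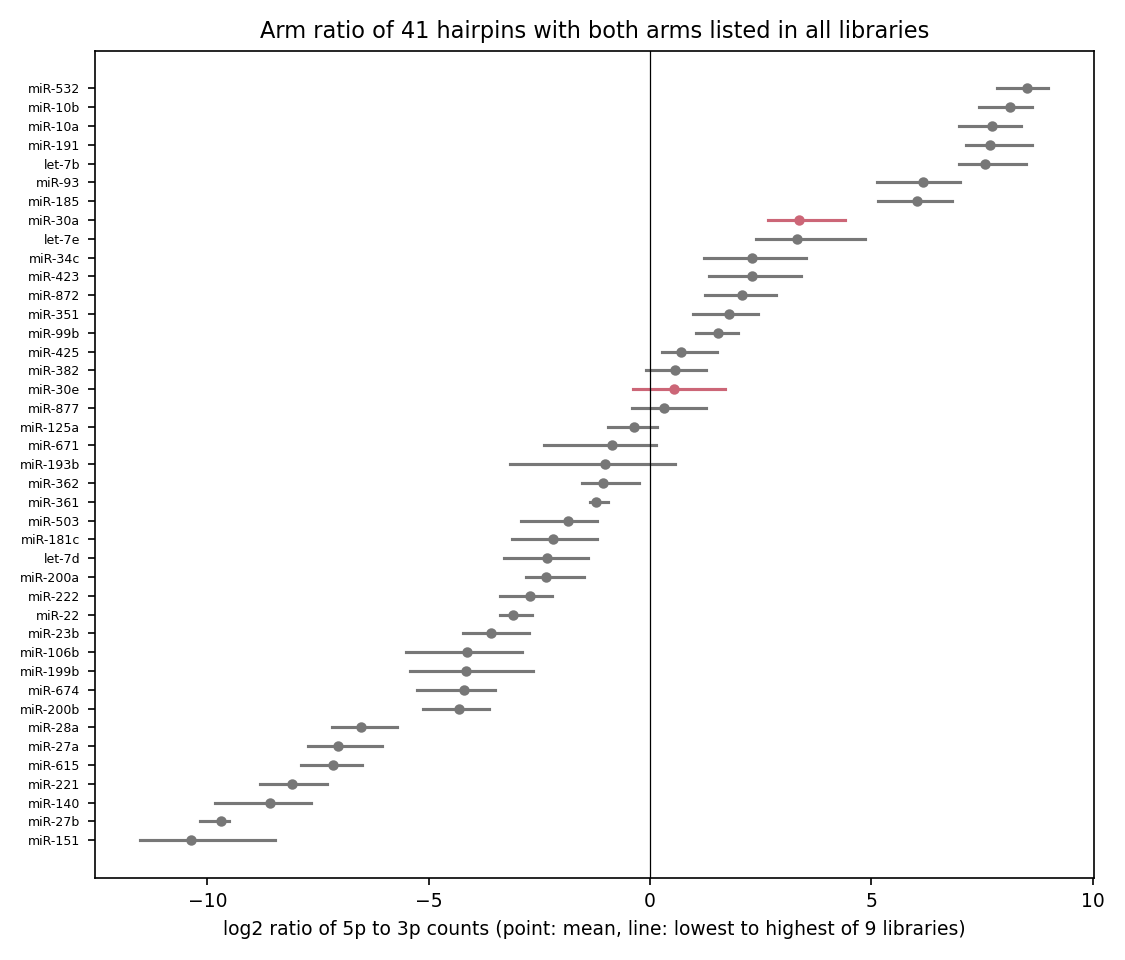
Mean log2 ratio of 5p to 3p counts of the 41 hairpins with both arms listed in all 9 libraries, with lines from the lowest to the highest library and miR-30a and miR-30e in red. miR-30a has a mean of 3.36, between let-7e at 3.31 and miR-185 at 6.03, and miR-30e lies close to 0.

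The 2 arms did not follow each other in level. Over the 9 libraries the log2 CPM of miR-30a-5p and miR-30a-3p had a Pearson r of -0.508, and miR-30a-3p took place 160 among the 259 other miRNAs listed in all libraries. Most like miR-30a-5p were miR-101b-3p (r = 0.942), miR-148b-3p (0.935), miR-542-3p (0.924), miR-30e-5p (0.905) and miR-362-3p (0.898). Most like miR-30a-3p were miR-1945 (0.925), miR-652-3p (0.893), miR-99b-3p (0.892), miR-25-3p (0.889) and miR-324-3p (0.865). The arm of the neighbouring hairpin, miR-30c-2-3p, had an r of 0.447 with miR-30a-5p, place 67. All of these are over 9 libraries whose shares have a common total.

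The likeness went along with base composition, in opposite directions for the 2 arms. The GC content was 45.5% in miR-30a-5p and 50.0% in miR-30a-3p, with a median of 48.0% over the listed miRNAs with a sequence. The 5 miRNAs most like miR-30a-5p had 31.8% to 42.1% GC, and the 5 most like miR-30a-3p had 50.0% to 70.0%. Across 227 miRNAs the r with miR-30a-5p fell with GC content (Spearman rho -0.636) and the r with miR-30a-3p rose with it (rho 0.666). miRNAs of 1 library are not independent points. With the GC trend across miRNAs removed from each library, a setting added after seeing the data, the log2 fold change of miR-30a-5p was 0.71 for high over normal glucose and 0.63 for high glucose over mannitol. The part of GC content in the arm ratio was not tested.

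**Figure D5:**
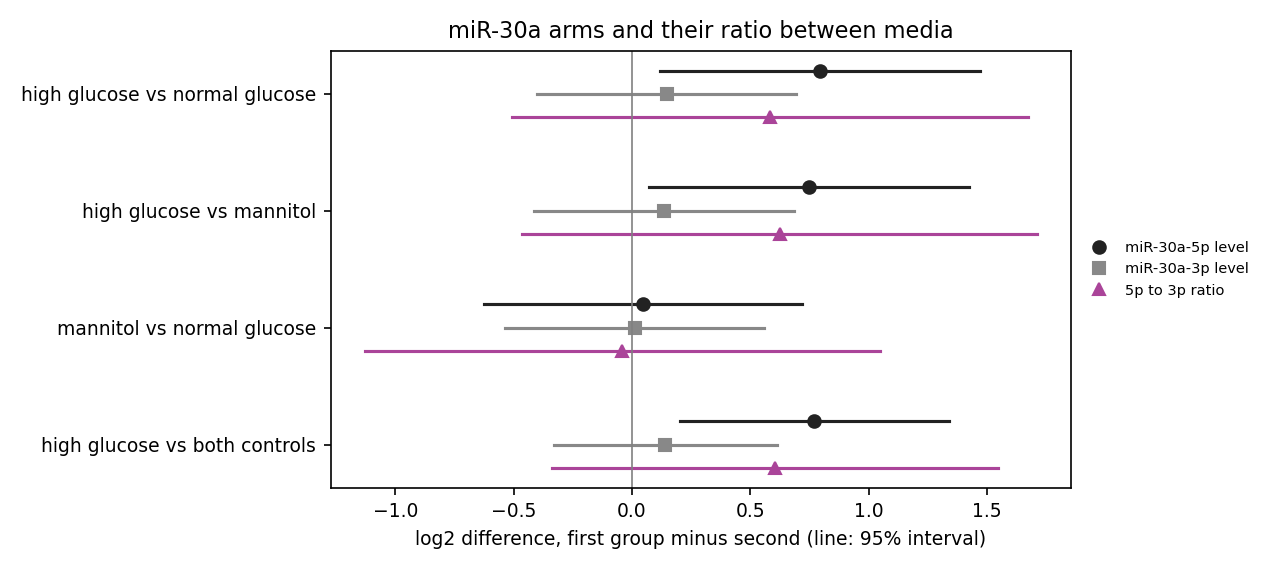
Log2 differences of the levels of miR-30a-5p and miR-30a-3p (edgeR) and of the ratio of 5p to 3p counts (limma) in the 4 comparisons, with 95% intervals before adjustment. The 3 intervals of miR-30a-5p with high glucose leave out 0, the lowest bound being 0.07, and all other intervals include 0.

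No miRNA marks podocytes alone, and serum or other cells could add to the supernatant, so lists of miRNAs typical of other sources were read beside the result. Of 4 kidney tubule miRNAs 3 were tested and miR-204-5p was listed at 0 in all libraries. Their summed level was 2286 to 3483 CPM under normal glucose, 2348 to 3211 CPM under mannitol and 3323 to 5008 CPM under high glucose. All 3 had a positive log2 fold change in high over normal glucose, with a median of 0.58 beside -0.04 for all tested miRNAs. Of 9 blood, immune and liver miRNAs 7 were tested, and miR-142a-3p was listed at 0 throughout. They summed to 21296 to 38946 CPM under normal glucose, 19134 to 44102 CPM under mannitol and 16480 to 29940 CPM under high glucose. In high over normal glucose 2 of the 7 were positive, with a median of -0.29 beside the same -0.04. The log2 level of miR-30a-5p had an r of 0.458 with the first sum and -0.841 with the second over the 9 libraries. The second list held miR-122-5p, alone at a mean of 15937 CPM over the 9 libraries. For single miRNAs, the 259 others listed in all libraries had a median r with miR-30a-5p of -0.28. miR-10a-5p, which is in none of these lists, had an r of -0.840. The 2 endothelial miRNAs summed to 229 to 825, 308 to 344 and 276 to 678 CPM in the 3 media, and the 5 mesenchymal ones to 1373 to 3755, 1619 to 2464 and 1776 to 2469 CPM, with r of -0.01 and 0.39. The edgeR test called no member of these lists. Each identifier entered the sums and counts on its own, so any that share the same reads would enter more than once. Their part in the level of miR-30a-5p was not tested.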

How the data were processed

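The authors deposited, per the file headers, total counts per miRNA and a normalized value in RPM for each of the 9 libraries. The counts were used as deposited. The RPM values equal the count divided by 1 constant per library. The tools BWA and bcl2fastq and the build mm10 are named in the submitters' processing notes, without settings. Of 1915 identifiers 479 were listed in any library, 260 in all and 361 were tested. Levels are CPM of miRNA counts. Levels were compared with edgeR 4.0.16 under R 4.3.3 (TMM scaling, filtering by group, robust quasi-likelihood test, all 9 libraries in 1 fit). Arm ratios were fitted in limma 3.58.1 and single values were compared by exact permutation over libraries. DESeq2 1.42.0, limma-voom, other scalings and leaving out each library were alternatives. The scripts were tested on simulated data. Hairpins were folded with RNAfold 2.7.2. Groups came from the treatment label. Titles without a number were counted as replicate 1. Deviations from the group means of same-numbered libraries correlated at 0.197, 0.316 and 0.244 between high and normal glucose, 0.454, 0.521 and 0.169 between high glucose and mannitol, and 0.229, 0.083 and -0.058 between mannitol and normal glucose. Every same-numbered pair with high glucose was thus above 0.1, as was mannitol replicate 3 with high glucose replicate 1, at 0.112. Blocked values stand beside those comparisons, although the labels give no pairing. Pairs of libraries of 1 group differed by a chi-square of 88.1 to 765 per degree of freedom, so none was deposited more than once within its group. Pairs across groups were not compared in this way. The members and lists were chosen with earlier results of these data known. Named miRNAs were the members, the other miR-30 arms, the 3 next most abundant miRNAs, the 5 most like each arm by Pearson r, and hairpins nearest in arm ratio or among the 10 most abundant.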

Additional observations from a re-analysis of the deposited data

How the results depend on the processing

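Of 323 alternatives over 26 results, 290 kept direction and side of the threshold. An exact permutation of 3 libraries against 3 cannot give a p under 0.1, and the levels had no test. For these results the side of the threshold could not change. With the library constant as the scale, miR-30a-3p turned to -0.0018 (high over normal glucose), -0.48 (over mannitol) and -0.24 (over both controls) on the log2 scale, and the other guides' sum to differences of -291 (high glucose minus mannitol), 480 (mannitol minus normal glucose) and -51.1 RPM (high glucose minus both controls). Listed zeros set to 9 counts turned miR-30a-3p to -0.087 over mannitol and -0.0157 over both controls. For mannitol over normal glucose, miR-30a-5p turned to -0.0197 in limma-voom and -0.019 with the replicate block, and miR-30a-3p to -0.0096 with TMM computed without miR-30a-5p. The RPM levels were 5194, 7370 and 9130 for miR-30a-5p and 611, 852 and 610 for miR-30a-3p in normal glucose, mannitol and high glucose, and CPM without miR-30a-5p in the total gave 106200 for miR-30a-5p in normal glucose. 

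Leaving out 1 library at a time, miR-30a-5p ranged from 0.58 to 1.03 for high glucose over both controls, passing only without mannitol replicate 2, and from -0.27 to 0.22 for mannitol over normal glucose. miR-30a-3p ranged from -0.029 to 0.32, -0.076 to 0.24, -0.098 to 0.18 and -0.052 to 0.27 for high over normal glucose, high glucose over mannitol, mannitol over normal glucose and high glucose over both controls, and without high glucose replicate 1 all 3 high glucose differences were below 0. For mannitol over normal glucose the arm ratio ranged from -0.42 to 0.20, the guide share from -0.012 to 4.80 percentage points and the other guides' sum from -4979 to 2154 CPM. For high glucose over normal glucose, mannitol and both controls the arm ratio ranged from 0.26 to 1.03, 0.30 to 1.07 and 0.28 to 1.05. No call on miR-30a changed with the replicate block, although the sign-flip permutation of 3 pairs cannot give a p under 0.25 and so could make no call. The 3 libraries a group and the floor of 10 reads limit all of these.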
